A study of Mus musculus with 479 samples.

Results

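Messenger RNA of 34 blood clotting and complement factors was followed in 4 tissues of 2 mouse lines. The 34 genes were listed by name as complement and clotting factors, without fibrinogen and C1q, and all 34 were found among the 24475 gene identifiers of each deposited table. They comprise 6 factors of the contact and intrinsic branch of clotting (F11, F12, Klkb1, Kng1, F8, F9), 5 of the extrinsic and common branch (F7, F10, F5, F2, F13b) and 9 anticoagulant, fibrinolytic and other plasma regulators (Proc, Pros1, Serpinc1, Serpind1, Plg, Serpinf2, Cpb2, Hrg, Vtn). On the complement side are 4 genes of the lectin start (Mbl1, Mbl2, Masp1, Masp2), 5 of the convertases and their control (C2, C4b, C3, Cfb, Cfi) and 5 terminal components (C6, C8a, C8b, C8g, C9).

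Clotting is a chain of proteases in which each activated factor cuts the next, ending with thrombin, which turns fibrinogen into fibrin; protein C, protein S and the serpins hold it in check, and plasmin dissolves the clot. Complement starts from antibody, from lectins that bind microbial sugars or from spontaneous turnover of C3, and converges on convertases that cut C3 and on terminal components that assemble into a membrane pore. Most of these proteins are made by hepatocytes and secreted into plasma, while some, such as C3, are also made in other tissues.

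The libraries came from mice heterozygous for Dchs1 or for Fat4 (Het), 2 genes for very large cadherins, and from their wild-type (WT) littermates. Both lines were made with VelociGene technology on a C57BL/6NTac background, and no treatment, sex, age or batch is given in the labels. Each of the 16 groups of line, tissue (heart, kidney, liver or lung) and genotype held 30 libraries, except Dchs1 liver Het with 29, which makes 479 libraries with 10720364 to 32282525 reads assigned to genes (median 18978025). The labels do not say that each library is a separate animal, so that the p-values reflect the spread among these libraries only.

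In its own line the targeted gene was under the WT median in all Het libraries, and markers of the labelled tissue were the highest of the tissue marker sets in 239 of 239 libraries of the Dchs1 line and 240 of 240 of the Fat4 line. Levels compared between genes or tissues are in TPM, transcripts scaled for length and library total. Het was compared with WT in CPM (reads scaled by library total and TMM), with the quasi-likelihood F test of edgeR. The standard errors (SE, after ± and as bars in figures) were worked back from this test. Each is the absolute log2 fold change divided by the square root of F. A gene was called at a Benjamini-Hochberg adjusted p under 0.05 over all genes tested. The share of all tested genes that were called stands beside the first edgeR count of factors in a comparison, and a share beside the count of another setting is that of the setting.

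The bases just before the start site are shown for 5 factors: prekallikrein Klkb1, the pore component C9, the central component C3, the histidine-rich glycoprotein Hrg and protein S, Pros1. All 5 windows shown hold a match to a pattern searched. The windows of Mbl2, Serpind1, C6, C8g and Serpinf2, which were also called in liver or kidney of the Dchs1 line, hold none. The same holds for F2, F7, F8, F12, Serpinc1, Vtn, Mbl1, C8a and C8b, likewise called there. Kng1, Proc, Plg, Masp1, C2, C4b and Cfb were called there too and had no window. Each window is the 250 bases upstream of the RefSeq start (GRCm38.p6), 5′ to 3′ on the strand of the gene, at chr8:45294836-45295085 (Klkb1, minus strand), chr15:6445096-6445345 (C9, plus strand), chr17:57228137-57228386 (C3, minus strand), chr16:22950822-22951071 (Hrg, plus strand) and chr16:62854057-62854306 (Pros1, plus strand). Capitals mark TTGCNNAA, the core letters of a C/EBP site, in the first 4 and TTCNNGGAA, a STAT3 type of site, in Pros1; in Klkb1 the match is on the opposite strand.
Klkb1: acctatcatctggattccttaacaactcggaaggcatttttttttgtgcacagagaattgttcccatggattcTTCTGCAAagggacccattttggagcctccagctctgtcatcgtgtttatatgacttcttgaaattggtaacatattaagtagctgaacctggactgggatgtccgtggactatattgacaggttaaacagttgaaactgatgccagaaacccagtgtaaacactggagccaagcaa
C9: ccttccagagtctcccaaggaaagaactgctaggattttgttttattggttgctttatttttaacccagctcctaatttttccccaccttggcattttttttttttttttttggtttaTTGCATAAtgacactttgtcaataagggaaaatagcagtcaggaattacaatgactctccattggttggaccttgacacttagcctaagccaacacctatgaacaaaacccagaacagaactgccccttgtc
C3: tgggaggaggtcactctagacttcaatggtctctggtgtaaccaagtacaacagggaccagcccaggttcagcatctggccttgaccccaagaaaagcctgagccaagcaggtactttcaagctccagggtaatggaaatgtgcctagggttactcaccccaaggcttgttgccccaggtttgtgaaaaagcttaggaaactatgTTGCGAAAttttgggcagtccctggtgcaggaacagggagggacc
Hrg: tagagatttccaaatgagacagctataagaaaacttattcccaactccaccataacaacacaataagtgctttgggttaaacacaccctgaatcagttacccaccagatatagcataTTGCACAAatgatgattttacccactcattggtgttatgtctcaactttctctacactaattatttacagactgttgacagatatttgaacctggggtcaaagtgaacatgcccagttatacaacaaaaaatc
Pros1: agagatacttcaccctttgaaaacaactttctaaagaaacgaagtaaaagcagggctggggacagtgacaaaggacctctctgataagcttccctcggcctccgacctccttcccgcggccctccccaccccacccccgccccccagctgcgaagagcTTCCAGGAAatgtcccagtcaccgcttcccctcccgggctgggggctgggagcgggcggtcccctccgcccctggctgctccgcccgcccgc

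Of the 34 factors 26 had an entry in the promoter table, with 27 windows since C8g had 2. TTGCNNAA was present in 22.2% of the 27 windows (C3, C9, F11, F9, Hrg and Klkb1) and in 9.56% of all 32851 windows of the table. TTCNNGGAA was present in 11.1% (F9, Masp2 and Pros1) against 4.06%. CAAAGTCCA, an HNF4 type of site, was found in 0 of the 27 windows and in 0.384% of all windows. Of 2 longer patterns, an HNF1 type of site was found in 3.7% (F13b) against 0.371% and an NF-kB type in 0 windows against 1.21%. Both strands were searched, and no 2 matches in these windows overlapped. A match describes letters in this window only.

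In WT mice these factors made up a far larger share of the transcripts in liver than in the other tissues. The TPM of the 34 factors summed to a median of 17222 in liver of the Dchs1 line (12332 to 21434 over 30 libraries), against 614 in lung, 410.0 in kidney and 77.2 in heart. In the Fat4 line the sums were 16425, 621, 465 and 68.9 TPM in the same order. All 34 had a mean of at least 1 TPM in liver, 16 did so in Dchs1 kidney and 18 in Fat4 kidney, and in both lines 13 did so in lung and 5 in heart.

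Every liver library exceeded every library of the other tissues for 30 of 34 factors in WT mice of the Dchs1 line and for 32 of 34 in the Fat4 mice, where 3.76 and 4.64% of all genes that passed the filter on low counts did so. The exceptions were Pros1 and C2 in both lines, and also F8 and C4b in the Dchs1 line. For Pros1 the median TPM was higher in lung than in liver in both lines. By edgeR on TMM-scaled counts all 34 were higher in liver than in each other tissue. The share of all genes higher in liver was 43.8% against heart, 40.6% against kidney and 43.1% against lung in Dchs1 WT mice, and 44.6, 41.7 and 45.3% in Fat4 WT mice.

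Liver levels in the Dchs1 line ran from F8, the cofactor missing in haemophilia A, with 2.52 to 6.05 TPM (median 4.44), to C3 with 1651 to 3233 TPM (median 2221). A liver median of at least 1000 TPM was reached by 6 factors: C3, the kininogen Kng1 (2027), vitronectin Vtn (1866), antithrombin Serpinc1 (1572), plasminogen Plg (1239) and prothrombin F2 (1019.6). The lowest after F8 were Pros1, F11 (31.5), the lectin protease Masp1 (34.2), F7 (58.1) and C2 (58.3). Among the 33 factors with a liver mean of at least 10 TPM, the coefficient of variation between libraries had a median of 17.8% (Dchs1 line) and 13.7% (Fat4 line), against 15.8 and 13.7% over all genes of that level.

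**Figure D1:**
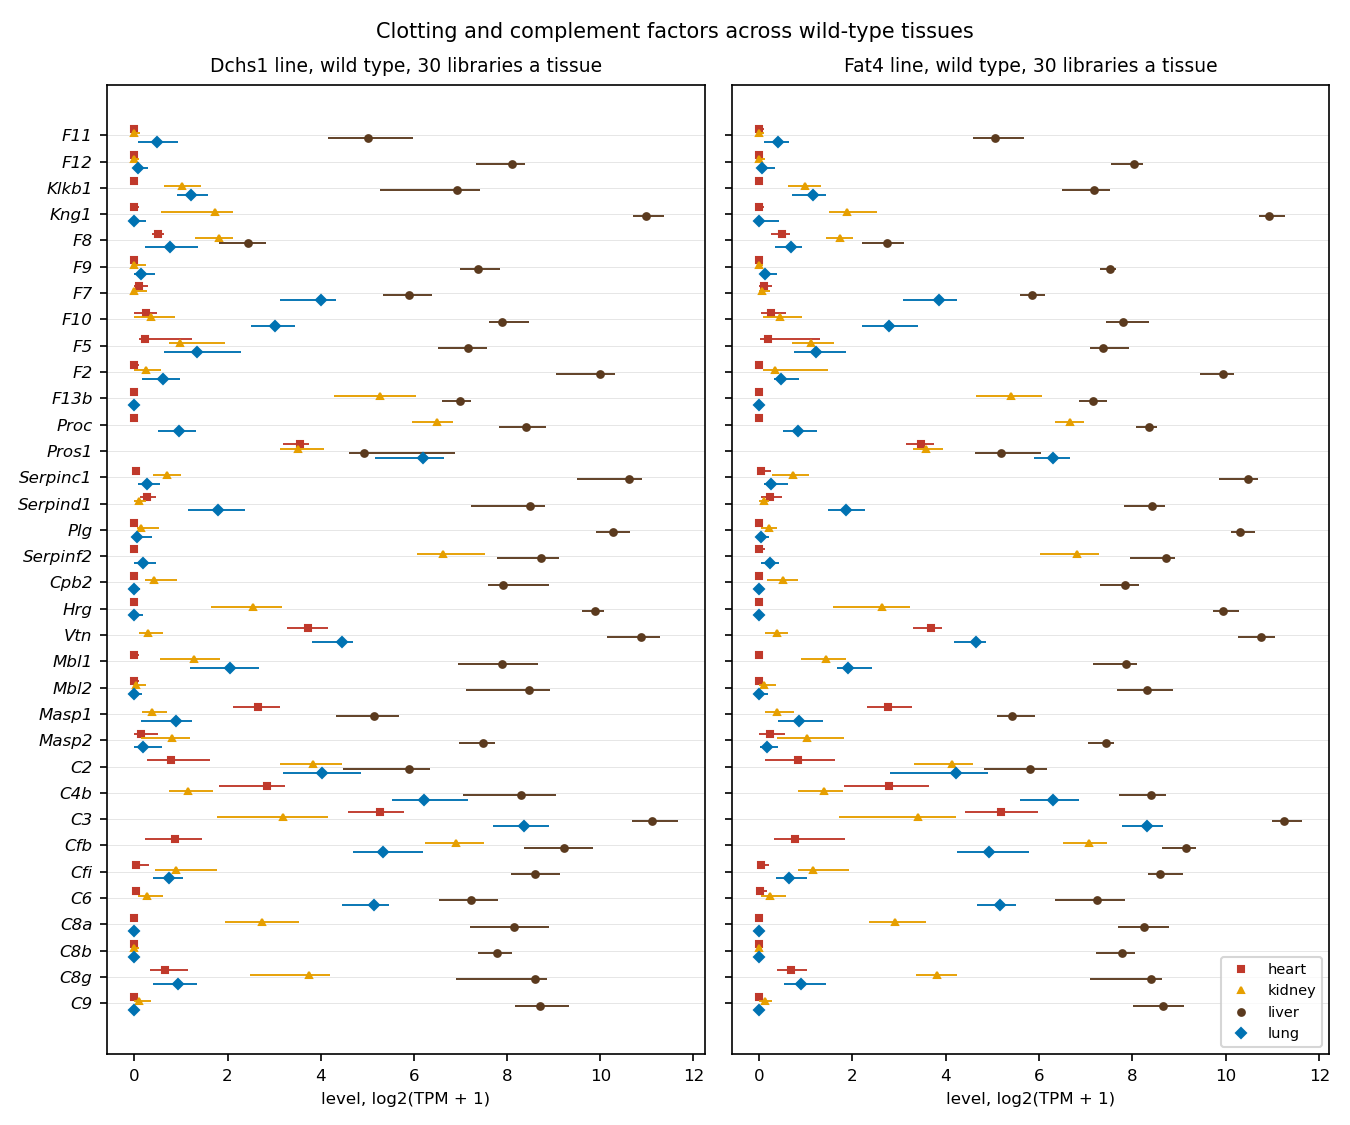
Levels of the 34 factors in WT libraries as log2(TPM + 1) on the horizontal axis, with 1 row per gene, the Dchs1 line on the left and the Fat4 line on the right; symbols are medians and lines run from the lowest to the highest of 30 libraries of each tissue. The liver symbol lies to the right of the others in 33 of 34 rows of each line, and Pros1 has its highest median in lung.

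A minority of factors had a sizeable level in another tissue. In Dchs1 WT lung C3 reached 206 to 479 TPM (median 330.2), C4b 45.5 to 142 (median 73.3) and C6, which binds the growing pore complex, 21.1 to 43.4 (median 34.4). In kidney Cfb, the protease of the alternative convertase, reached 74.5 to 182 TPM (median 119), the plasmin inhibitor Serpinf2 66.1 to 183 (median 98) and protein C, Proc, 61.5 to 113 (median 89.6). The kidney also held F13b, the carrier subunit of the fibrin-crosslinking factor XIII, at 18.6 to 64.9 TPM (median 37.6), although its median was 0 TPM in heart and 0 in lung.

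In the Fat4 line the medians were 316 TPM for C3 in lung and 134, 111, 101 and 41.2 TPM for Cfb, Serpinf2, Proc and F13b in kidney. At the other end 12 factors (Dchs1 line) and 10 factors (Fat4 line) had a median under 1 TPM in all of heart, kidney and lung. C8b had 0 reads in the 30 WT lung libraries of each line, which allows up to 0.00658 CPM in Dchs1 lung and 0.00463 CPM in Fat4 lung (3 reads over the group, counting error only).

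Pros1, whose product is the cofactor of activated protein C and also a ligand of the TAM receptors, broke the liver pattern. Its TPM was 34.9 to 99.3 (median 72.2) in lung and 23.4 to 117 (median 29.6) in liver of the Dchs1 line, and 58.1 to 100.4 (median 77.2) and 23.7 to 64.6 (median 35.2) in the Fat4 line. Its kidney and heart medians were 10.4 and 10.8 TPM in Dchs1 WT mice and 10.9 and 10.2 TPM in Fat4 WT mice. The order of liver and lung depended on the scale: edgeR on TMM-scaled counts put liver above lung by 0.51 (Dchs1 line) and 0.43 (Fat4 line) on the log2 scale, while on TPM lung had the higher median.

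In liver of Dchs1 heterozygotes most of the clotting and complement factors were lower and protein S was higher. Of the 34 factors, all tested, 19 fell and 2 rose, where 25.4% of all 12526 tested genes were lower and 24.3% higher (49.8% in either direction). The falls ran from 1.05-fold for F12 to 1.95-fold for Klkb1. The median log2 fold change (Het minus WT) was -0.12 over the 34 factors and 0.00 over all genes tested, and the median absolute change was 0.16 and 0.15.

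All 5 terminal components fell. C9, which lines the membrane pore, had 314 to 916 CPM (median 453) in WT liver and 199 to 478 (median 314) in Het liver. It fell by 0.54 ± 0.0837 (SE) on the log2 scale (adjusted p = 2.07e-07, edgeR), and 28 of 29 Het libraries lay under the WT median, 14 of them under the lowest WT library. C6 had 186 to 358 CPM (median 262) in WT and 87.8 to 319 (median 184) in Het, and fell by 0.50 ± 0.0828 (adjusted p = 1.0e-06, edgeR). The groups overlapped for both genes, and 15 of 29 Het libraries were under the lowest WT library for C6.

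The subunits of C8, which start the membrane insertion, fell by 0.42 ± 0.0596 (C8g), 0.41 ± 0.086 (C8a) and 0.17 ± 0.0649 (C8b). C8g had 101 to 230.1 CPM (median 177) in WT and 88.3 to 163 (median 134) in Het, with 29 of 29 Het libraries under the WT median (adjusted p = 2.49e-08, edgeR). Of the upstream complement genes, C4b, the substrate of the classical and lectin proteases, had 563 to 1827 CPM (median 1034) in WT and 479 to 1098 (median 747) in Het. It fell by 0.53 ± 0.0761 (adjusted p = 3.91e-08, edgeR), with 28 of 29 Het libraries under the WT median and overlapping groups. Reads of C4b can be shared with its near-identical copy C4a, and the change was -0.53 with the counts of both added.

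Cfb had 622 to 1414 CPM (median 922) in WT liver and 508 to 874 (median 712) in Het liver, a fall of 0.36 ± 0.0524 (adjusted p = 8.01e-08, edgeR, 29 of 29 Het libraries under the WT median). C2, which lies 87 bases away on chromosome 17, was not called (-0.07), nor were C3 (-0.06) and factor I, Cfi (-0.12). Of the lectin start, the mannose-binding lectin Mbl2 had 93.1 to 345 CPM (median 228) in WT and 74.8 to 223 (median 141) in Het, and fell by 0.70 ± 0.0903 (adjusted p = 2.95e-09, edgeR). For Mbl2 29 of 29 Het libraries lay under the WT median and 2 under the lowest WT library. Its companion lectin Mbl1 fell by 0.24 ± 0.0598, while the proteases Masp1 (-0.08) and Masp2 (0.04) were not called.

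Among the clotting factors the largest fall was that of Klkb1, the precursor of plasma kallikrein, which activates factor XII and frees bradykinin. It had 58.8 to 243 CPM (median 193) in WT and 27.9 to 156 (median 101) in Het, and fell by 0.96 ± 0.112 (adjusted p = 2.05e-10, edgeR). For Klkb1 29 of 29 Het libraries were under the WT median and 2 under the lowest WT library, so that the ranges overlapped. Smaller falls were those of F11 (-0.31), F2 (-0.19), F7 (-0.14) and F12 (-0.08), whereas F9, the factor missing in haemophilia B, rose by 0.18 ± 0.0485. F8 (-0.05), F10 (-0.11), F5 (-0.07), F13b (-0.11) and Kng1 (0.04) were not called.

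Heparin cofactor II, Serpind1, which inhibits thrombin, had 204 to 556 CPM (median 464) in WT and 134 to 408 (median 288) in Het, and fell by 0.70 ± 0.0832 (adjusted p = 3.86e-10, edgeR). Proc had 225 to 424 CPM (median 332) in WT and 209.7 to 309 (median 255) in Het, a fall of 0.36 ± 0.0431 (adjusted p = 6.06e-10, edgeR). All 29 Het libraries lay under the WT median for both genes, 4 of them under the lowest WT library for Serpind1 and 2 for Proc. Vtn (-0.20), Plg (-0.12) and Serpinc1 (-0.11) fell by less, and Serpinf2 (0.11), Cpb2 (-0.08) and Hrg (0.01) were not called.

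Pros1 went the other way. It had 45.2 to 242 CPM (median 61.3) in WT liver and 99.1 to 235 (median 125) in Het liver, and rose by 0.95 ± 0.109 on the log2 scale (adjusted p = 1.28e-10, edgeR). A single WT library at 242 CPM stood apart, the next highest had 96.9 CPM, and 29 of 29 Het libraries exceeded the other 29 WT libraries. Without that WT library, a choice made after its value was seen, the rise of Pros1 was 1.08 (adjusted p = 3.66e-18, edgeR), and 2 factors rose and 21 fell (25.6% of genes higher and 26.3% lower).

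**Figure D2:**
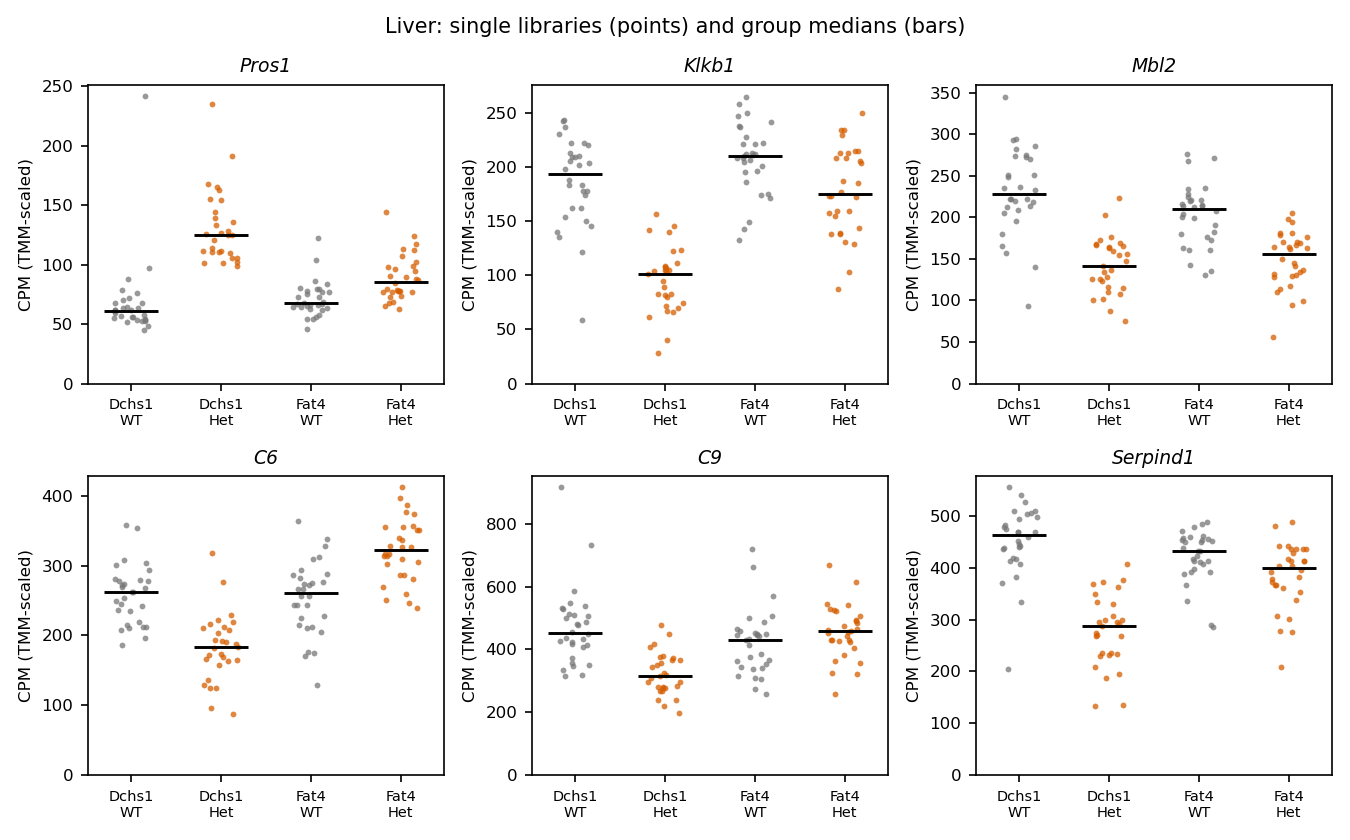
CPM of Pros1, Klkb1, Mbl2, C6, C9 and Serpind1 in single liver libraries (points) of WT (grey) and Het (orange) mice of both lines, with bars at the group medians. Pros1 is higher in Het of both lines, with medians of 125 against 61.3 CPM in the Dchs1 line and 85.6 against 67.4 CPM in the Fat4 line; C6 moves in opposite directions in the 2 lines.

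Other genes of the same systems were mixed. The 3 fibrinogen chains all rose in Dchs1 Het liver, Fgb by 0.48, Fga by 0.41 and Fgg by 0.36. Of 8 genes of the C1 complex 4 fell and 0 rose by edgeR, among them the proteases C1s1 (-0.66) and C1ra (-0.46), and of 8 other plasma complement proteins 4 fell, with Hc, the gene of component C5, at -0.19. Of 9 complement regulators 3 fell and 1 rose, C4bp at -0.40 and Cr1l at 0.19. Of 10 other clotting and anticoagulant genes 5 rose and 4 fell (median 0.00), with tissue factor F3 at 0.43 and Kng2 at 0.25, and protein Z, Proz, at -0.62, the gamma-carboxylase Ggcx at -0.38 and the epoxide reductase Vkorc1 at -0.27. Of 4 complement receptors 2 rose and 0 fell by edgeR, and of 5 fibrinolysis genes 2 rose and 1 fell.

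Of 16 hepatocyte markers 6 rose and 4 fell in Dchs1 Het liver, with a summed level of 110554 to 163611 CPM (median 136380.0) in WT and 122187 to 182062 (median 148663) in Het. Among 11 liver transcription factors 4 fell and 0 rose by edgeR, including Cebpa (-0.73, with 73.4 to 231 CPM in WT and 54.1 to 162 in Het) and Foxa2 (-0.44). Of 15 acute phase genes 2 rose and 2 fell, the falls being those of Saa2 (-2.45) and Saa1 (-1.79). The summed level of the 15 was 6984 to 35380 CPM (median 9318) in WT and 7051 to 21628 (median 9817) in Het. This sum follows mainly the genes with the most reads. In bulk tissue fewer cells of a type and less RNA per cell cannot be told apart, and the part of these genes in the result was not tested.

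The labels number the libraries, and stretches of near-consecutive numbers are the only stand-in for a batch. Within the longest stretch of Dchs1 liver (23 WT and 24 Het libraries) 2 factors rose and 18 fell (22.7% of genes higher and 26.5% lower), with Klkb1 at -1.01, Mbl2 at -0.68, C6 at -0.45 and Pros1 at 0.89. F12, F7, Serpinc1 and Vtn lost their call under at least 1 other setting, and the other 17 called factors kept theirs.

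In liver of Fat4 heterozygotes fewer factors moved. Of the 34 tested 4 rose and 3 fell, where 3.64% of 12484 genes were higher and 3.51% lower (7.15% in either direction). Mbl2 fell and Pros1 rose, as in the Dchs1 line, and C6 and C8b rose, where they fell in the Dchs1 line. The median log2 fold change was -0.05 over the factors and 0.00 over all genes tested.

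Mbl2 had 130.1 to 277 CPM (median 209.8) in WT and 56.6 to 205 (median 156) in Het, a fall of 0.45 ± 0.0808 (adjusted p = 0.000109, edgeR), with 30 of 30 Het libraries under the WT median. C6 had 129 to 363 CPM (median 261) in WT and 239 to 412 (median 322) in Het, and rose by 0.34 ± 0.0676 (adjusted p = 0.000364, edgeR, 26 of 30 over the WT median). The groups overlapped for both, with 8 Het libraries under the lowest WT library for Mbl2 and 5 over the highest for C6. Pros1 had 46.1 to 123 CPM (median 67.4) in WT and 62.8 to 144 (median 85.6) in Het, and rose by 0.33 ± 0.0735 (adjusted p = 0.00236, edgeR, 28 of 30 over the WT median).

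The other 4 called changes were smaller. C8b had 182 to 426 CPM (median 274) in WT and 245 to 434 (median 316) in Het and rose by 0.21 ± 0.0632 (adjusted p = 0.0244, edgeR), and Masp2, which cleaves C4 and C2, had 164 to 196 CPM (median 179) and 169 to 213 (median 189.7) and rose by 0.08 ± 0.0226 (adjusted p = 0.0231, edgeR). F7, the factor that tissue factor binds, had 49.7 to 69.2 CPM (median 60.3) in WT and 45.1 to 64 (median 56.4) in Het and fell by 0.11 ± 0.0333 (adjusted p = 0.0243, edgeR). Serpinc1 had 1257 to 1549 CPM (median 1430.0) in WT and 1087 to 1516 (median 1341) in Het and fell by 0.10 ± 0.0266 (adjusted p = 0.0114, edgeR). All 4 pairs of groups overlapped. On the TPM scale limma called 2 factors higher and 8 lower (0.912% of genes higher and 5.91% lower), and the calls of Masp2 and C8b were lost.

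Of the other genes in Fat4 liver, 0 of 3 fibrinogen chains rose and 0 fell by edgeR, and C4a rose by 0.76 while C4b was not called (0.02). Saa1 rose by 1.09, the only one of 15 acute phase genes called, and 4 of 16 hepatocyte markers rose, Serpina3k among them at 0.27. Their part in the result was not tested. In the longest stretch (27 WT and 30 Het libraries) 4 factors rose and 4 fell (4.87% of genes higher and 4.67% lower), with Mbl2 at -0.46, C6 at 0.33 and Pros1 at 0.36.

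**Figure D3:**
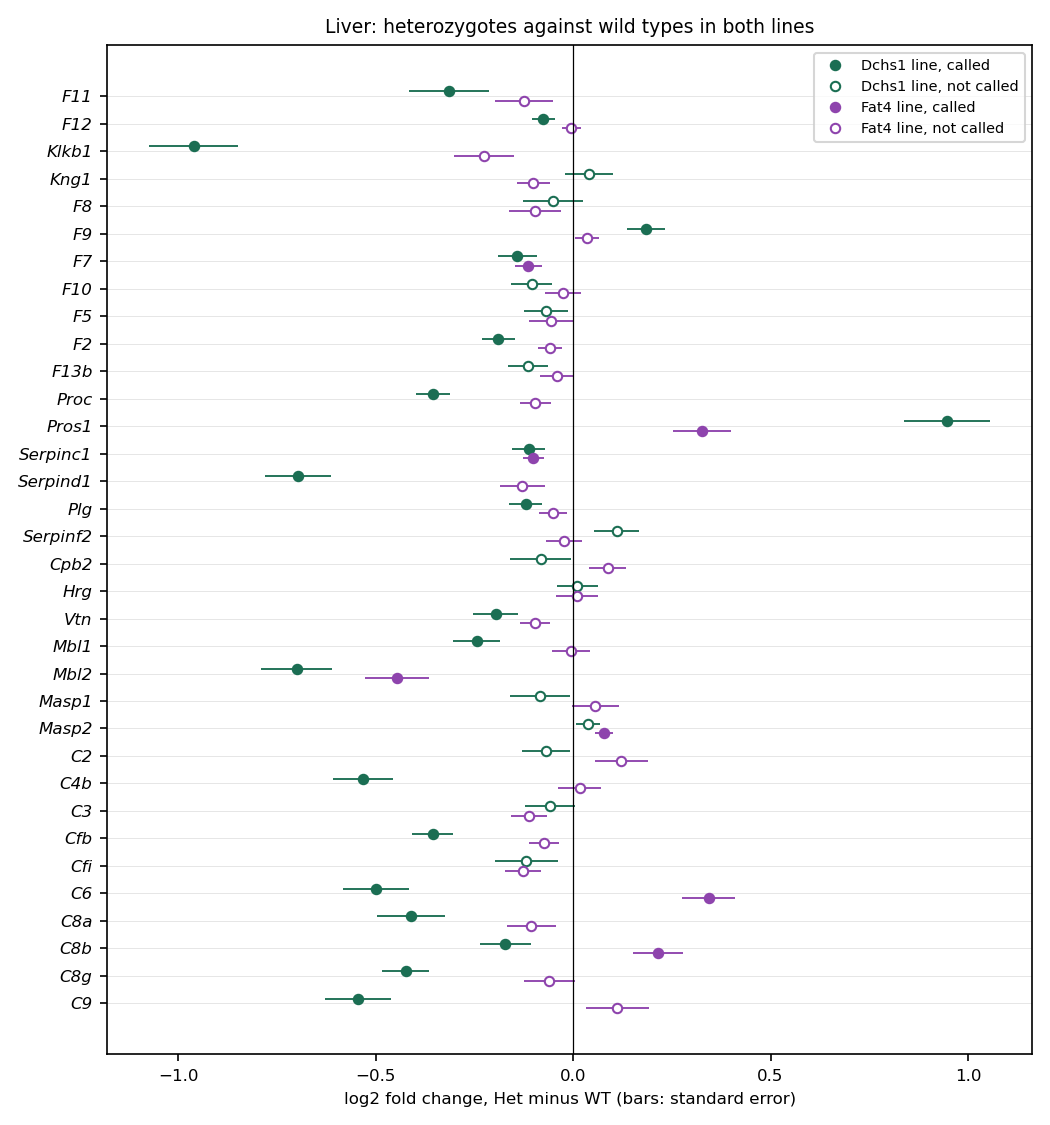
Log2 fold change, Het minus WT, of the 34 factors in liver with standard errors as bars, the Dchs1 line in green and the Fat4 line in purple; filled symbols are called by edgeR. In the Dchs1 line 19 filled symbols lie left of 0 and 2 right of it, in the Fat4 line 3 and 4.

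Whether the change itself differed between the lines was tested by the interaction of line and genotype. In liver 13 of 34 factors passed, where 23.6% of 12855 genes did. As Dchs1 minus Fat4, the change of C6 differed by -0.83 ± 0.108 (adjusted p = 2.67e-09, edgeR), that of Klkb1 by -0.72 ± 0.136, of C9 by -0.64 ± 0.116, of Serpind1 by -0.55 ± 0.101, of C4b by -0.53 ± 0.0938 and of C8b by -0.37 ± 0.0916. Pros1 was called higher in both lines and its rise was larger in the Dchs1 line by 0.64 ± 0.131. For Mbl2, called lower in both lines, the interaction did not pass (-0.24). C6 and C8b are the 2 factors called in opposite directions in liver.

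In kidney of Dchs1 heterozygotes the factors split evenly. Of 22 factors that passed the filter on low counts, 8 rose and 8 fell, where 23.4% of 14142 genes were higher and 23.8% lower (47.2% in either direction). Hrg fell 2.69-fold, the largest fall, and Masp2 rose 2.03-fold, the largest rise among them. The median absolute log2 change was 0.33 over these factors and 0.12 over all genes tested, and 12 factors were not tested.

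The 3 falls of smallest p were of plasma regulators. Hrg, which binds heparin, plasminogen and other plasma proteins, had 2.76 to 9.5 CPM (median 6.16) in WT kidney and 0.905 to 4.21 (median 2.38) in Het kidney. It fell by 1.43 ± 0.123 on the log2 scale (adjusted p = 7.11e-15, edgeR), with 30 of 30 Het libraries under the WT median and 22 under the lowest WT library. In liver, its main tissue, Hrg was not called (0.01).

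Proc had 76.4 to 121 CPM (median 102) in WT kidney and 57.7 to 91.7 (median 71.6) in Het, and fell by 0.45 ± 0.046 (adjusted p = 2.69e-12, edgeR). Serpinf2 had 112 to 270.4 CPM (median 157) in WT and 75.5 to 135 (median 106) in Het, and fell by 0.63 ± 0.0665 (adjusted p = 7.61e-12, edgeR). For Proc 30 of 30 and for Serpinf2 30 of 30 Het libraries lay under the WT median, with 19 and 21 under the lowest WT library. Pros1, the partner of protein C, rose instead, with 20.5 to 37.8 CPM (median 23.9) in WT and 24.2 to 42.9 (median 31.7) in Het, by 0.34 ± 0.0577 (adjusted p = 1.45e-06, edgeR, 30 of 30 over the WT median).

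In the complement groups C3 had 8.4 to 55.9 CPM (median 32.2) in WT kidney and 22.9 to 84.9 (median 59.5) in Het. It rose by 0.93 ± 0.139 (adjusted p = 1.17e-07, edgeR), with 28 of 30 Het libraries over the WT median and 19 over the highest WT library. Cfb, at a median of 239 CPM in WT and 196 in Het, fell by 0.23 ± 0.0477, and its neighbour C2 rose by 0.18 ± 0.0493. Libraries were strand-specific per the labels, and no source used here says how strand entered the counting.

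The lectin start and C6 changed at very low levels. Mbl1 had 0.31 to 1.69 CPM (median 0.942) in WT and 0.259 to 0.786 (median 0.523) in Het, and fell by 0.90 ± 0.126 (adjusted p = 2.31e-08, edgeR). Masp2 had 0.084 to 1.07 CPM (median 0.591) in WT and 0.479 to 2.98 (median 1.0) in Het, and rose by 1.02 ± 0.17 (adjusted p = 1.22e-06, edgeR). The related protease Masp1 had 0.219 to 1.31 CPM (median 0.565) and 0.389 to 2.42 (median 1.02), and rose by 0.81 ± 0.144 (adjusted p = 3.98e-06, edgeR). C6 rose by 0.85 ± 0.171 from a median of 0.407 to 0.66 CPM. The WT and Het ranges overlapped for these 4 genes.

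Of the C8 subunits C8g fell by 0.38 ± 0.0839 and C8a by 0.32 ± 0.105. F8 fell by 0.20 ± 0.0771, and the contact factors Kng1 and Klkb1 rose by 0.39 ± 0.0922 and 0.33 ± 0.0767, from WT medians of 2.65 and 1.8 CPM. Reads of Kng1 can be shared with its near-identical copy Kng2. Kng2 rose by 0.43 from a median of 133 to 181 CPM, and with the counts of both added the change was 0.43. The calls of C8a, Cfb and F8 were lost on the TPM scale (7 factors higher and 5 lower of 18, with 39.2% of genes higher and 10.7% lower), and the other 13 called factors kept theirs under each setting that tested them.

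**Figure D4:**
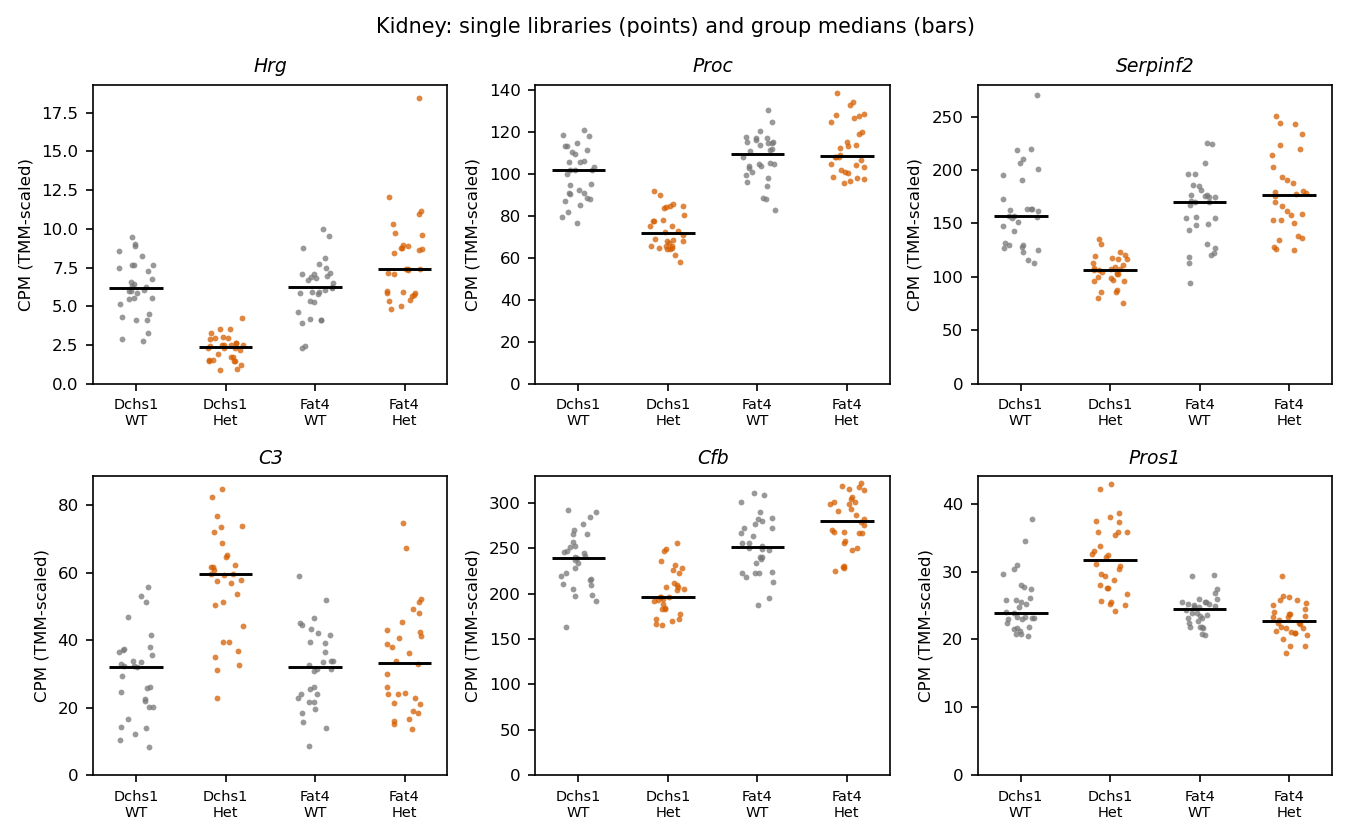
CPM of Hrg, Proc, Serpinf2, C3, Cfb and Pros1 in single kidney libraries (points) of WT (grey) and Het (orange) mice of both lines, with bars at the group medians. In the Dchs1 line Hrg falls from a median of 6.16 to 2.38 CPM and C3 rises from 32.2 to 59.5 CPM, while in the Fat4 line Hrg stands at 6.21 and 7.41 CPM.

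The fibrinogen chains had larger changes than any of the 34 factors in Dchs1 kidney, with Fgb at 2.45, Fgg at 2.37 and Fga at 2.33. Of 12 other clotting and anticoagulant genes 4 rose and 2 fell, with Kng2 at 0.43 and Proz at -1.05, and of 7 fibrinolysis genes 0 rose and 2 fell by edgeR, Pzp, a protease inhibitor of the alpha-2-macroglobulin family, at -1.18. Of 6 genes of the C1 complex 0 rose and 2 fell by edgeR, the C1r relative C1rl at -0.67, and of 4 plasma complement proteins 1 rose and 2 fell, C7, the terminal component that follows C6, at 0.47. Of 9 complement regulators 4 rose and 1 fell, Cd46, a membrane cofactor, at 0.40. Over all other pathway genes 13 rose and 11 fell of 47.

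Of 11 tested hepatocyte markers 7 rose and 2 fell in Dchs1 kidney, with a median log2 change of 0.67. The summed level of all 16 markers was 911 to 1991 CPM (median 1543) in WT and 669 to 1753 (median 1350.1) in Het, of which Cyp2e1 had medians of 1387 and 1204. Alb had a median of 3.59 CPM in WT and 4.45 in Het, and Ahsg, Cps1, Tat and Tdo2 each had a WT median of 0 CPM. Of 7 tubule injury markers 5 rose and 1 fell. Their summed levels were 252 to 379.7 CPM (median 302) in WT and 294 to 659 (median 365) in Het. Of 6 tubule markers 3 fell and 1 rose, with a median log2 change of -0.22. Their summed levels were 16512 to 26069.8 CPM (median 22557) in WT and 10051 to 19001 (median 13623) in Het. A sum follows mainly the genes with the most reads. Of 7 acute phase genes 5 rose and 0 fell by edgeR (median 0.30), Itih3 at 0.78 and Lcn2 at 0.84. The part of the hepatocyte, tubule, injury and acute phase genes in the result was not tested. In the longest stretch of Dchs1 kidney (23 WT and 25 Het libraries) 8 factors rose and 8 fell (23.7% of genes higher and 21.9% lower), with Hrg at -1.43, Serpinf2 at -0.60, Proc at -0.45 and C3 at 1.02.

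In kidney of Fat4 heterozygotes 4 of 22 tested factors rose and 0 fell by edgeR, where 9.21% of 14014 genes were higher and 7.87% lower (17.1% in either direction). Hrg had 2.3 to 9.96 CPM (median 6.21) in WT and 4.84 to 18.5 (median 7.41) in Het, and rose by 0.39 ± 0.114 (adjusted p = 0.0121, edgeR, 20 of 30 Het libraries over the WT median). F13b had 43.1 to 100.3 CPM (median 68.7) in WT and 53.4 to 96.7 (median 78.4) in Het, a rise of 0.22 ± 0.063 (adjusted p = 0.0133, edgeR, 25 of 30). Cfb had 188 to 311 CPM (median 251) in WT and 224 to 322 (median 280.4) in Het and rose by 0.14 ± 0.043 (adjusted p = 0.016, edgeR, 24 of 30).

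Masp2 had 0.383 to 1.62 CPM (median 0.791) in WT and 0.37 to 1.86 (median 1.15) in Het, and rose by 0.38 ± 0.127 (adjusted p = 0.0318, edgeR). The groups overlapped for all 4 factors. The fibrinogen chains Fgg and Fga rose by 0.88 and 0.84, and 2 of 11 hepatocyte markers rose and 0 fell. Of 7 tubule injury markers 2 rose and 2 fell, with summed levels of 295 to 426 CPM (median 355) in WT and 280.4 to 422 (median 331) in Het. Of 7 liver transcription factors 3 rose and 0 fell by edgeR, Hnf4a at 0.19, and 4 of 7 endothelial markers fell, with sums of 353 to 509 CPM (median 419) in WT and 331 to 475 (median 384) in Het. The part of these genes in the result was not tested. In the longest stretch of this set (24 WT and 24 Het libraries) 3 factors rose and 1 fell (8.17% of genes higher and 7.02% lower), Hrg was at 0.34 (adjusted p = 0.0495, edgeR), and Cfb and Masp2 lost their calls.

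**Figure D5:**
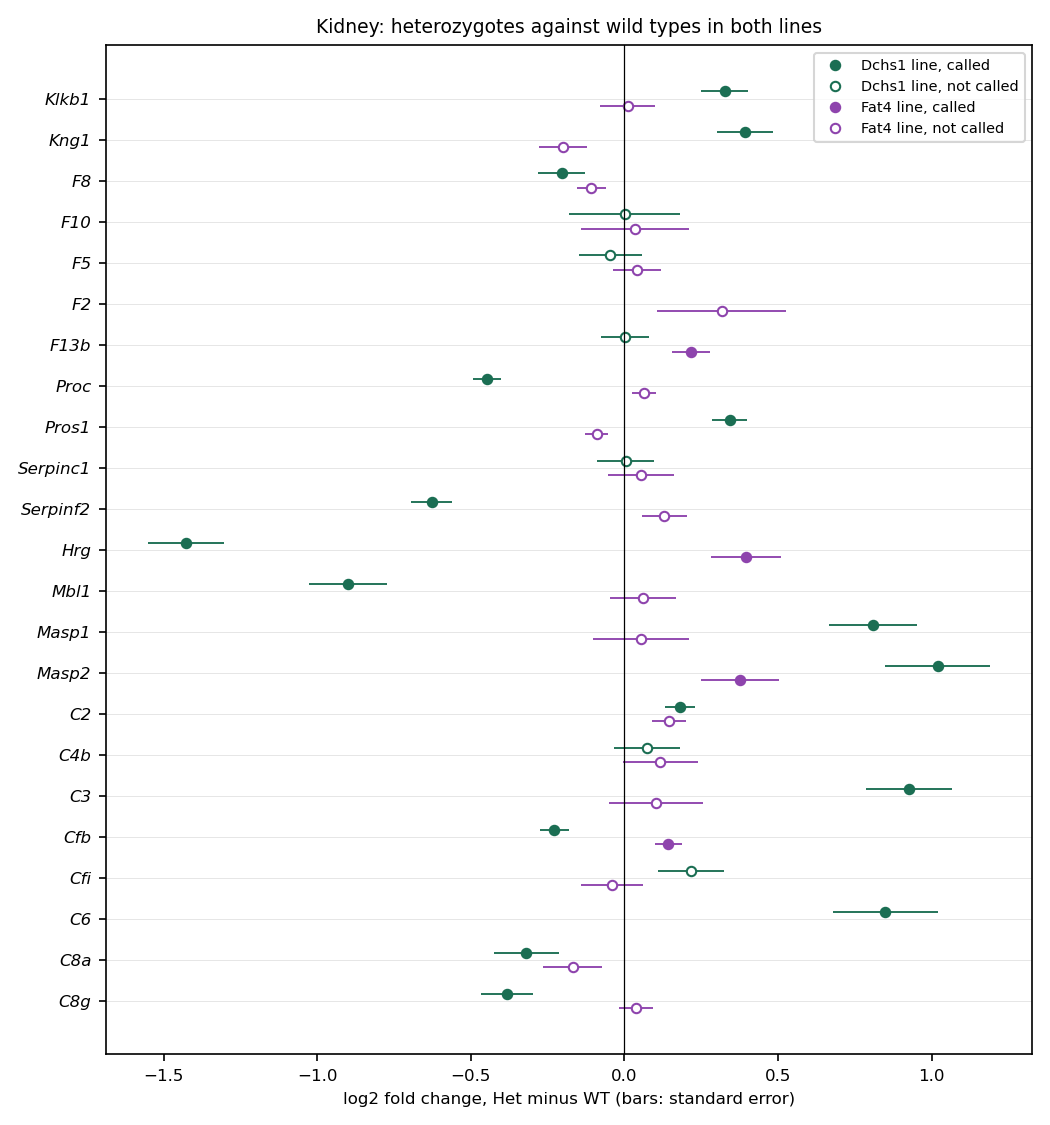
Log2 fold change, Het minus WT, of the factors tested in kidney with standard errors as bars, the Dchs1 line in green and the Fat4 line in purple; filled symbols are called by edgeR. Hrg and Cfb have filled symbols on opposite sides of 0 in the 2 lines, at -1.43 and 0.39 for Hrg.

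In kidney the interaction of line and genotype passed for 12 of 24 factors, where 33.5% of 14353 genes passed. The change of Hrg differed by -1.81 ± 0.169 (Dchs1 minus Fat4, adjusted p = 3.72e-16, edgeR), that of Serpinf2 by -0.75 ± 0.0996, of Proc by -0.50 ± 0.0599 and of Cfb by -0.36 ± 0.0633. C3 differed by 0.83 ± 0.21, Kng1 by 0.60 ± 0.122 and Pros1 by 0.44 ± 0.0707. Hrg and Cfb were the 2 factors called in opposite directions, and Masp2 was called higher in both lines, by more in the Dchs1 line (0.65 ± 0.214).

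Heart had the fewest factors past the filter on low counts. In heart of Dchs1 heterozygotes 1 of 9 tested factors rose and 2 fell, where 26.1% of 13304 genes were higher and 24.1% lower (50.2% in either direction). Vtn had 11.1 to 20.2 CPM (median 15.4) in WT and 9.75 to 17.4 (median 13.5) in Het, and fell by 0.22 ± 0.0499 (adjusted p = 0.000204, edgeR, 28 of 30 Het libraries under the WT median). Masp1, whose next tissue after liver is the heart (median 5.25 TPM), had 7.13 to 15.3 CPM (median 10.6) in WT and 6.42 to 16.4 (median 12.4) in Het, and rose by 0.23 ± 0.0635 (adjusted p = 0.00226, edgeR, 25 of 30 over it).

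F5, the cofactor of factor X, had 0.384 to 7.24 CPM (median 0.894) in WT heart and 0.144 to 3.76 (median 0.614) in Het, and fell by 0.99 ± 0.287 (adjusted p = 0.00325, edgeR, 23 of 30 under the WT median). Platelets carry F5, and 2 of 3 tested platelet markers fell as well, with summed levels of 4.79 to 49.1 CPM (median 7.69) in WT and 3.91 to 35.7 (median 6.18) in Het, as did 4 of 6 blood markers. Of 7 fibroblast markers 4 fell and 1 rose, with sums of 886 to 1268 CPM (median 1083) in WT and 818 to 1203 (median 1002) in Het. Of 6 cardiomyocyte markers 3 fell, and 2 of 3 tested hepatocyte markers rose. Summed lung epithelium markers had 0.0517 to 149 CPM (median 0.411) in WT heart and 0.151 to 96.2 (median 0.633) in Het heart. The part of these markers in the changes of Vtn, Masp1 and F5 was not tested. In the longest stretch of Dchs1 heart (24 WT and 24 Het libraries) 1 factor rose and 2 fell (26.5% of genes higher and 24.1% lower), with F5 at -0.90. On TPM limma called 1 factor higher and 1 lower of 6 (24.6% of genes higher and 19.7% lower), and F5 was not among those 6. DESeq2 called 1 higher and 3 lower of 33 (16.8% of genes higher and 17% lower).

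In lung of Dchs1 heterozygotes 1 of 18 tested factors rose and 4 fell, where 9.60% of 15069 genes were higher and 10.4% lower (20% in either direction). F5 had 2.24 to 13.9 CPM (median 6.17) in WT and 1.36 to 9.04 (median 4.22) in Het, and fell by 0.60 ± 0.17 (adjusted p = 0.00655, edgeR, 25 of 30 Het libraries under the WT median). F8, made by endothelial cells, had 0.793 to 5.82 CPM (median 2.81) in WT and 0.978 to 3.8 (median 2.23) in Het, a fall of 0.45 ± 0.141 (adjusted p = 0.0168, edgeR, 23 of 30). Of 6 platelet markers 2 fell, Ppbp by 0.64, with summed levels of 19.4 to 63 CPM (median 42.5) in WT and 13.7 to 53.6 (median 28.9) in Het, and 3 of 8 endothelial markers fell. Their part in the result was not tested.

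Cfb had 39.4 to 132 CPM (median 63.7) in WT lung and 28.6 to 88.1 (median 52.9) in Het, and fell by 0.31 ± 0.108 (adjusted p = 0.030, edgeR). Cfi, which inactivates C3b and C4b, had 0.40 to 1.18 CPM (median 0.814) and 0.215 to 1.17 (median 0.615), and fell by 0.34 ± 0.122 (adjusted p = 0.036, edgeR). Mbl1 had 0.649 to 3.16 CPM (median 1.69) and 1.31 to 3.39 (median 2.03), and rose by 0.28 ± 0.102 (adjusted p = 0.0426, edgeR). The groups overlapped for all 5 factors. Of 6 tested hepatocyte markers 3 rose and 1 fell, with sums of 37.5 to 114 CPM (median 61.5) in WT and 45.8 to 103 (median 69.5) in Het, and 4 of 8 fibroblast markers fell. Their part in these changes was not tested. C3 (0.05), C4b (-0.02), C6 (-0.06) and Pros1 (-0.04), all with a sizeable lung level, were not called. In the longest stretch of Dchs1 lung (24 WT and 24 Het libraries) 1 factor rose and 2 fell (14.4% of genes higher and 16.3% lower), F5 at -0.62 and F8 at -0.46, and limma on TPM called 0 higher and 2 lower of 15 (4.04% of genes higher and 11.5% lower). Cfb, Cfi and Mbl1 lost their call under at least 1 other setting, and F5 and F8 kept theirs under each setting that tested them.

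In heart and lung of Fat4 heterozygotes 0 of 9 and 0 of 20 tested factors were called by edgeR. Of all genes 0.969% were higher and 0.628% lower in heart (1.60% of 13213), and 0.110% and 0.0259% in lung (0.136% of 15415). At an unadjusted p under 0.05 there were 0 factors in heart and 3 in lung, and DESeq2 and limma called 0 in heart and 0 in lung. The log2 changes lay between -0.30 and 0.09 in heart and between -0.23 and 0.13 in lung. The interaction passed in heart for 1 of 11 factors, Vtn, at -0.24 ± 0.0637 (adjusted p = 0.00213, edgeR), where 25.5% of 13623 genes passed. In lung it passed for 0 of 20 by edgeR, where 5.0% of 15496 genes did. For the lung interaction 2 factors had an unadjusted p under 0.05, and DESeq2 called 1. No share of all genes is given for the counts at an unadjusted p or for the DESeq2 interaction.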

How the data were processed

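RNA of heart, kidney, liver and lung was sequenced single-end after poly(A) selection and strand-specific library making, per the labels. The authors deposited 1 table of estimated counts and 1 of TPM for each line; per the submitters' processing notes bcl2fastq 2.17, FastQC and GRCm38 were used, and no source used here names the aligner or counter. The estimated counts, of which 15.5 and 15.7% in the 2 tables were not whole, were rounded before testing, and the TPM as deposited were used for levels.

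Counts were filtered with filterByExpr (minimum count 10, minimum total 15), scaled by TMM and fitted by edgeR 4.0.16 (glmQLFit) in R 4.3.3, with Het and WT of 1 line and tissue in each fit over all genes, both lines for the interaction, and 4 tissues of WT for the tissue contrasts. Alternatives were DESeq2 1.42.0, its size factors in edgeR, no filter, limma 3.58.1 on log2(TPM + 1) or log2(TPM + 0.1), the number stretch (gap of at most 2) as covariate or the longest one alone, outlying libraries or those high in hepatocyte markers left out, and paralog counts added. The 34 factors and all lists were chosen with earlier results of these data known. In each comparison the 8 called factors of smallest p are given in full, other called factors by value, and other lists by counts with up to 4 called genes of smallest p; the remaining markers are named only where given beside a result, and some genes of these lists are not reported here. Totals per library run from 10720364 to 32282525 reads, and the reads counted for a gene limit the precision. The fits were tested on simulated data.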

Additional observations from a re-analysis of the deposited data

Results flagged for a closer look

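The difference between the 2 lines in the response to heterozygosity, as the log2 fold change in the Dchs1 line minus that in the Fat4 line, passed the edgeR interaction test for 26 values of the 34 factors. In heart this was Vtn -0.24. In kidney the differences were Klkb1 0.32, Kng1 0.60, Proc -0.50, Pros1 0.44, Serpinf2 -0.75, Hrg -1.81, Mbl1 -0.95, Masp1 0.76, Masp2 0.65, C3 0.83, Cfb -0.36 and C8g -0.41. In liver they were Klkb1 -0.72, F9 0.16, Proc -0.24, Pros1 0.64, Serpind1 -0.55, Mbl1 -0.22, C4b -0.53, Cfb -0.27, C6 -0.83, C8a -0.29, C8b -0.37, C8g -0.35 and C9 -0.64. The lines also differ in their stretches of library numbers, so that line and number stretch cannot be told apart.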

How the results depend on the processing

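For single factors in the comparisons of Het and WT, 1347 alternative values kept their direction and side of the threshold, 32 lost the threshold, 29 gained it, 2 changed sign where the factor was called in at least 1 of the fits compared and 50 changed sign where it was called in neither. The setting that adds paralog counts leaves the counts of all factors but C4b and Kng1 unchanged. The 2 limma settings differ only in the pseudocount. The values that kept their side therefore include near-repeats. In Dchs1 lung 2 factors were called with limma on log2(TPM + 1) or log2(TPM + 0.1) and 3 in the longest number stretch, against 5 with edgeR. The lung interaction gave 1 factor with DESeq2, for which no share of all genes is given, against 0 with edgeR. Masp2 in Fat4 liver was -0.0046 and -0.0047 with limma at the 2 pseudocounts; the cause was not tested. Between WT tissues, limma on log2(TPM + 1) turned the sign, in the Dchs1 and then the Fat4 line, of Pros1 for liver minus lung (-1.06, -1.07) and kidney minus heart (0.0095, 0.10). For kidney minus lung it turned Klkb1 (-0.21, -0.12), F5 (-0.28, -0.12) and C2 (-0.16, -0.0062), and in the Fat4 line F2 (-0.11) and Mbl1 (-0.55). For lung minus heart it turned F8 (0.29, 0.22), Vtn (0.65, 0.99), C8g (0.28, 0.22) and, in the Dchs1 line, Masp2 (0.0063); the cause was not tested. No paired analysis was possible because each library number occurs in 1 library only and the labels do not tie the tissues of an animal. The stretch settings could not be run in Fat4 lung, which is 1 stretch. Outside liver the edgeR fits with the filter leave factors with few reads untested.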
